A study of Mus musculus with 6 samples.

Results

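The proteasome is the protease complex that degrades ubiquitin-tagged proteins, and its genes were examined here in mouse orbitofrontal cortex after knockdown of the circular RNA circHomer1a. The members were all listed genes whose symbol begins with Psma to Psmg followed by a digit, without the immunoproteasome genes Psmb8, Psmb9 and Psmb10. This gave 45 of the 13348 listed genes, of which 14 encode the core (Psma and Psmb) and 31 were counted as regulatory (Psmc, Psmd, Psme, Psmf and Psmg). One of the 31, Psmc3ip, matches the name pattern but encodes a partner of meiotic recombinases and is not a proteasome subunit. RNA was sequenced from 6 libraries, 3 per group. The knockdown mice received in the orbitofrontal cortex a lentivirus carrying a short hairpin RNA (shRNA) against the junction of circHomer1a, the circle formed from exons of Homer1, which encodes a postsynaptic scaffold. In the control group the tissue, strain and age were the same, and the labels give the libraries no treatment beyond the name control. All mice were C57BL/6 and 12 weeks old. Whether each library is 1 animal is not stated in the labels. The p-values below therefore reflect the scatter among these libraries alone, and that scatter may be technical. The tissue was bulk cortex, in which fewer cells of a type and less RNA per cell cannot be told apart.

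In the assembled complex, rings of alpha subunits gate the barrel of the core and rings of beta subunits hold the catalytic sites inside it. The regulatory particle has a base, with a ring of ATPases that unfold the substrate and receptors that bind ubiquitin, and a lid that removes the ubiquitin chain. Dedicated chaperones assemble both parts. In neurons the complex acts at synapses as well as in the cell body, where it removes receptors and scaffold proteins.

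Values are FPKM, fragments scaled by feature length and by library size, as the authors deposited them. The listed genes summed to between 256047 and 277103 FPKM in the knockdown libraries and to between 264518 and 285833 FPKM in the control libraries. Read depth is unknown, so the precision is that given by the replicates. Homer1 itself had 7.44, 16.1 and 9.47 FPKM in the knockdown libraries and 12.1, 8.97 and 12.1 FPKM in the control libraries. The groups overlapped, and these values of the linear gene do not check the knockdown, because no circular RNA is listed. Cortical excitatory markers were present in each library: Slc17a7, the vesicular glutamate transporter of these neurons, had 93.1 to 114 FPKM in the knockdown libraries and 86.5 to 259 FPKM in the control libraries.

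All 7 alpha and all 7 beta genes were expressed. On the gene scale their means over the 6 libraries ran from 26.7 FPKM for Psma2, an alpha subunit, to 145.9 FPKM for Psmb1, a beta subunit without an active site. The ratio of highest to lowest was 5.46, although the complex holds the subunits in equal number. When each gene was measured as the sum of its listed transcripts, the range was 29.3 FPKM for Psma3 to 149 FPKM for Psmb6, a ratio of 5.11. The median of the beta ring was above that of the alpha ring on both scales, with medians of 73.2 and 34.9 FPKM by gene and of 107 and 64.3 FPKM by transcript sum. The order of single genes depended on the scale: Psmb7, the trypsin-like catalytic subunit, had 36.7 FPKM by gene and 107 FPKM by its 1 listed transcript. Its annotated exons span 3421 bases together, whereas that transcript has 1160 bases.

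Among the regulatory genes, levels were far less even. The highest was Psmc5, an ATPase of the base, with 150.02 FPKM, and the lowest was Psme2b, a copy of the activator gene Psme2, with 0.634 FPKM. On the gene scale the 6 ATPase genes had a median of 50.7 FPKM, with Psmc2 lowest at 22.4 FPKM. By transcript sum their median was 81.75 FPKM, Psmc6 was lowest at 35.4 FPKM and Psmc2 had 62.8 FPKM. The 8 lid genes had a median of 25.5 FPKM, from 9.03 FPKM for Psmd11 to 49.4 FPKM for Psmd7. The assembly chaperones were lower, with medians of 12.3 FPKM for the 4 core chaperones (Psmg1 to Psmg4) and 5.18 FPKM for the 3 base chaperones (Psmd5, Psmd9 and Psmd10). By transcript sum the medians were 40.3 FPKM for the lid, 14.7 FPKM for the core chaperones and 11.15 FPKM for the base chaperones.

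**Figure D1:**
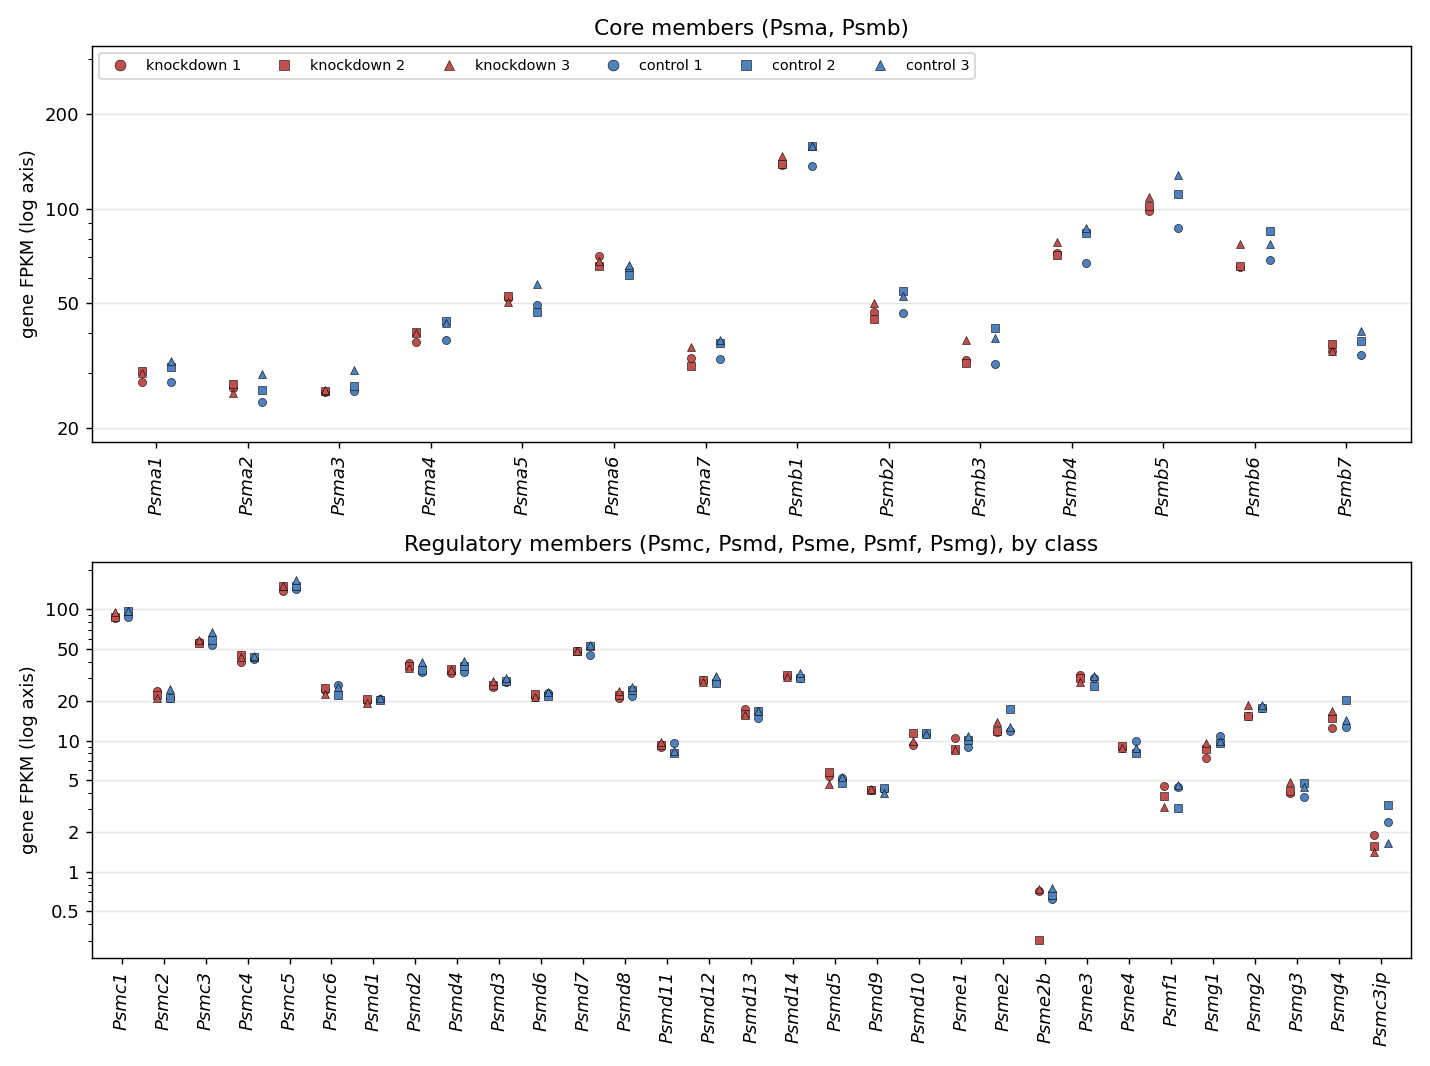
FPKM of every member (log axis) in the knockdown libraries (red, left of each pair) and the control libraries (blue, right), with 1 symbol per replicate number. The groups overlap for each of the 44 tested members, and Psme2b, with a mean of 0.634 FPKM, was below the level tested.

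Upstream sequences are shown for 5 members. Of the 11 core genes with a promoter sequence to search, Psmb5 and Psmb6 are those that hold TGACNNNGC. Psmb1, Psmb2 and Psmb7 had no such sequence. Psmg1, Psmd4 and Psmd11 are regulatory genes with CCGGAAG whose values are described below. The sequences shown are the 150 bases before the RefSeq start site (GRCm38.p6), read 5′ to 3′ on the gene's strand. TGACNNNGC or CCGGAAG is in capitals on either strand. TGACNNNGC is the core of the antioxidant response element that Nrf1 (Nfe2l1) and its relatives bind, and CCGGAAG is a form of the ETS-family site. Psmb5 lies on the minus strand at chr14:54617996-54618145, Psmb6 on the plus strand at chr11:70525207-70525356, Psmg1 on the minus strand at chr16:95990961-95991110, Psmd4 on the minus strand at chr3:95042615-95042764 and Psmd11 on the plus strand at chr11:80428465-80428614.
Psmb5: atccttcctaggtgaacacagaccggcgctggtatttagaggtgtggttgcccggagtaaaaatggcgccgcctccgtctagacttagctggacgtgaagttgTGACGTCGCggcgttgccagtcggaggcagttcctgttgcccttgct
Psmb6: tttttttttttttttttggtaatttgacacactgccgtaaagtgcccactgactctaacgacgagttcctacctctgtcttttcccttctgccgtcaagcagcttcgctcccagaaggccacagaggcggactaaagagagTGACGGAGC
Psmg1: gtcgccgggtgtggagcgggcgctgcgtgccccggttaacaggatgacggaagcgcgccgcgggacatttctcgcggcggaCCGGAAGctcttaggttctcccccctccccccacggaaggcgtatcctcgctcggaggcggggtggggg
Psmd4: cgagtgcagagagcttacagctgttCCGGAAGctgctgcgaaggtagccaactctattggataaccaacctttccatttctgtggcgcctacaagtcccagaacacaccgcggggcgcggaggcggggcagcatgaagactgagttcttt
Psmd11: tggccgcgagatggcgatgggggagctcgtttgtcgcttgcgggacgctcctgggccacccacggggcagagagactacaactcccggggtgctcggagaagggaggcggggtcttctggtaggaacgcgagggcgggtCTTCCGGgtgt

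In the table of 300-base promoters, 250 before to 50 after the start, 38 of the 45 members had an entry. CCGGAAG occurred in 14 of 27 regulatory promoters (51.9%) and in 0 of 11 core promoters. It occurred in 16.6% of the promoters of the genes tested and in 8.9% of all promoters. The 14 include Psmc3ip, which is not a proteasome subunit and held 3 matches. TGACNNNGC occurred in 2 of 11 core promoters, those of Psmb5 and Psmb6 shown above, and in 4 of 27 regulatory promoters, against 13.9% of the promoters of the genes tested. CCAAT occurred in 6 of 11 core promoters and 7 of 27 regulatory promoters, against 37.3% of the promoters of the genes tested. The 7 include Psmc3ip, and the 6 include Psma6. For Psma6 the sequence searched, chr12:55383972-55384271, is at the outer start of the gene. Its 1 listed transcript starts downstream, at chr12:55398775, so the sequence before that start was not searched. Both strands were searched, and matches of different motifs were counted separately, also where they overlap. A match is a run of letters and not a bound site.

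No proteasome gene passed the test between knockdown and control. In limma on log2(FPKM + 1), with Benjamini-Hochberg adjustment over 11961 genes, 0 of 44 members were called, and the smallest adjusted p was 0.948. The background is 0 genes called, 0% of those tested. At an unadjusted p under 0.05, 0 of 44 members passed, against 427 genes (3.57%) overall. Complete separation of the groups was seen in 0 of 44 members in either direction, against 4.45% of all genes for higher in knockdown and 3.47% for lower in knockdown. The members were also measured more tightly than the average gene, with a median 95% interval of 0.228 to either side of the log2 fold change, against 0.292 over all genes. Among the core genes the intervals reached no lower than -0.41 and no higher than 0.28.

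Most members had small negative differences. Of the 44, 34 were lower in mean in the knockdown libraries and 10 were higher, and the median log2 fold change (knockdown minus control) was -0.06. All genes together had a median of 0.019, with 44.3% negative. The core median was -0.083, with 12 of 14 genes negative, and the regulatory median was -0.05, with 22 of 30 negative. These values depended on single control libraries. Without control 3 the core median was -0.024 and the regulatory median -0.017, without control 2 the core median was -0.046, and without control 1 it was -0.149. With every library scaled to one common sum the regulatory median was 0.008, with 14 of 30 negative, and the core median was -0.025, while the median of all genes was 0.071 and 30.4% of all genes were negative. Relative to the median of all genes, the core lay at -0.103 as reported, -0.096 with the common sum and -0.043 with quantile normalization, and the regulatory genes at -0.07, -0.062 and -0.037.

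**Figure D2:**
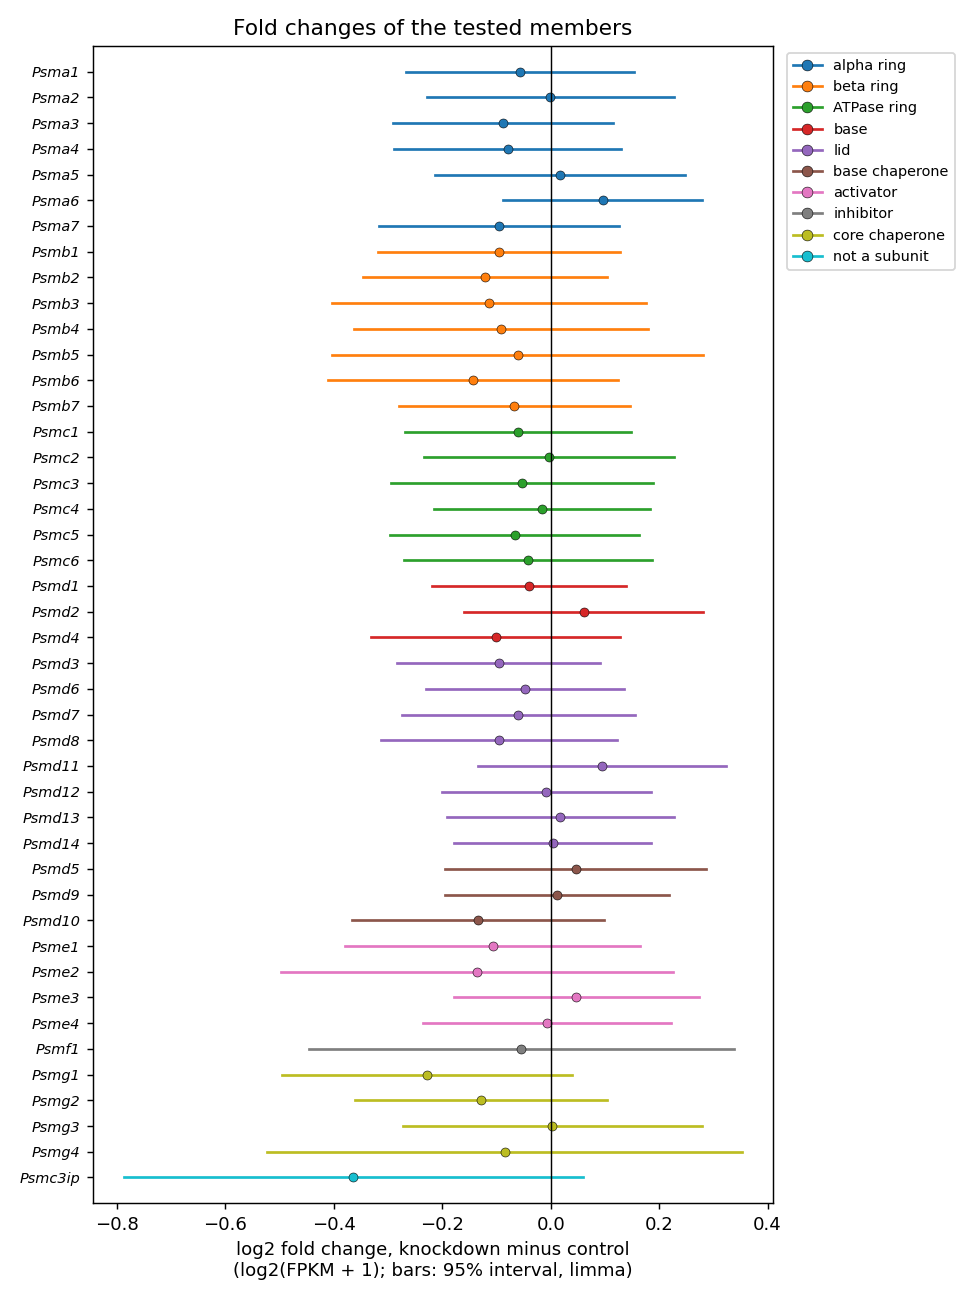
Log2 fold change of the 44 tested members, knockdown minus control, on log2(FPKM + 1), with 95% intervals from limma and colours for classes. Each interval includes 0; Psma6 is the highest at 0.10 and Psmc3ip the lowest at -0.36.

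The alpha ring gave no uniform direction. Psma6, an alpha subunit, had 70.7, 65.7 and 67.9 FPKM in the knockdown libraries and 63.7, 61.5 and 65.9 FPKM in the control libraries. Only knockdown 2 and control 3 overlapped, the log2 fold change was 0.10 ± 0.08 (SE), and the adjusted p was 0.948. Its 1 listed transcript did not follow the gene value, with 48.4, 58.5 and 80.1 FPKM in the knockdown libraries and 74.8, 72.3 and 51.6 FPKM in the control libraries, so that by transcripts the log2 fold change was -0.10. Psma3, another alpha subunit, had 26.1, 26.2 and 26.3 FPKM in the knockdown libraries and 26.2, 27.2 and 30.5 FPKM in the control libraries. The knockdown libraries were nearly identical, control 1 lay among them, and control 2 and control 3 were higher. Psma2 had 26.8, 27.5 and 25.8 FPKM in the knockdown libraries and 24.3, 26.3 and 29.8 FPKM in the control libraries. Control libraries thus held both its lowest and its highest value. Of the 7 alpha genes, 5 were negative, and 3 with the common sum that lowered the negative share of all genes to 30.4%.

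The beta ring was the class in which all 7 genes were negative, with a median of -0.096, and it stayed so under each scaling tried, at a median of -0.036 with a common sum. Its size still turned on single controls, since leaving out control 1 gave -0.203, leaving out control 2 gave -0.059, and leaving out control 3 gave -0.063 with 6 of 7 genes negative. Psmb6, the caspase-like catalytic subunit, had 65.3, 65.8 and 77.3 FPKM in the knockdown libraries and 68.7, 84.9 and 77.2 FPKM in the control libraries. The groups overlapped, since knockdown 3 lay with control 3, and the log2 fold change was -0.14 ± 0.11 (SE; limma, adjusted p = 0.948). Psmb5, the chymotrypsin-like subunit and the main target of proteasome inhibitors, had 98.5, 102 and 109 FPKM in the knockdown libraries and 86.9, 112 and 128 FPKM in the control libraries. All 3 knockdown values lay between control 1 and control 2. Psmb7, the trypsin-like subunit, had 35.2, 37.1 and 35.2 FPKM in the knockdown libraries and 34.3, 38.0 and 40.7 FPKM in the control libraries. It too had its lowest value in control 1.

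Psmb1 and Psmb2, beta subunits without a standard active site, showed the same arrangement. Psmb2 had 46.6, 44.4 and 50.1 FPKM in the knockdown libraries and 46.5, 54.7 and 52.7 FPKM in the control libraries. Psmb1 had 138, 138 and 147 FPKM in the knockdown libraries and 137, 158 and 158 FPKM in the control libraries. In both, control 1 lay with the knockdown libraries while control 2 and control 3 were the highest.

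For 13 of the 14 core genes the control libraries were more spread than the knockdown libraries (92.9%), against 59.1% of all genes tested. For the core the median SD on the log2 scale was 0.058 in the knockdown libraries and 0.121 in the control libraries, against 0.126 and 0.150 over all genes. In each of the 14 core genes the range of the control libraries was larger than the difference between group means, which held for 88.3% of all genes. Control 3 held the highest value of 8 core genes, control 2 that of 5 and knockdown 1 that of the remaining gene, Psma6. Control 1 held the lowest value of 6.

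The same order is seen when each class is summarised as the median deviation of its genes from their means over the 6 libraries. The core score was -0.075, -0.044 and 0.021 in the knockdown libraries and -0.088, 0.087 and 0.124 in the control libraries. All knockdown values lay inside the range of the control libraries. For the regulatory genes the score was -0.032, -0.004 and -0.02 in the knockdown libraries and -0.035, 0.024 and 0.073 in the control libraries. As a share of the summed FPKM, the core genes made up 0.298%, 0.295% and 0.293% in the knockdown libraries and 0.278%, 0.296% and 0.318% in the control libraries. Here control 2 no longer stood above the knockdown libraries, whereas control 1 and control 3 remained the extremes.

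**Figure D3:**
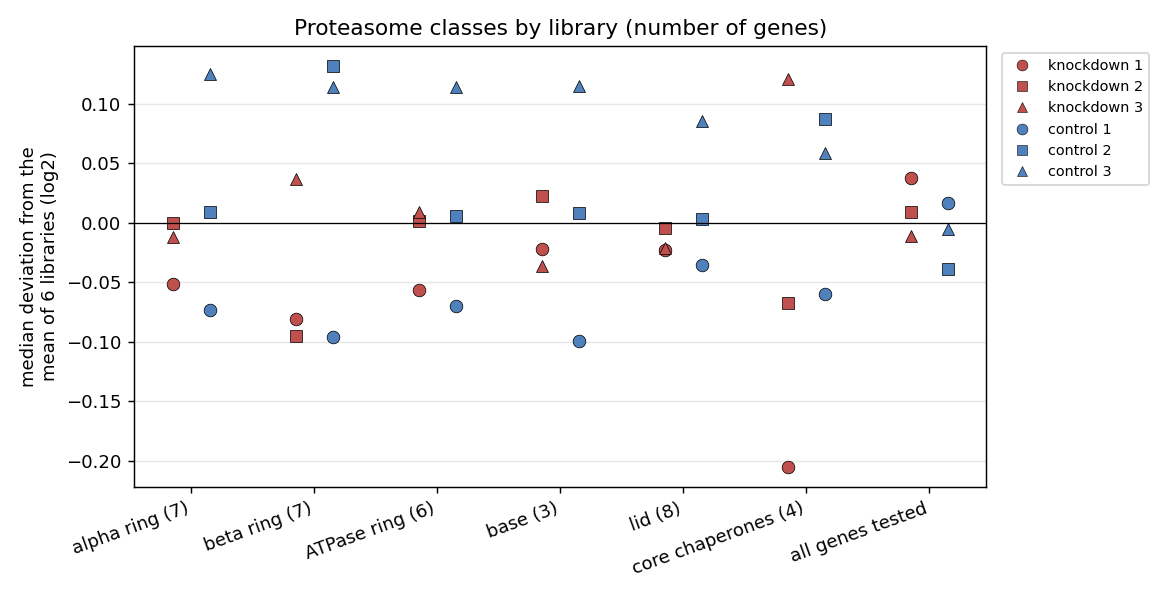
Median deviation from the 6-library mean (log2) for 6 proteasome classes and for all genes tested, with knockdown libraries in red on the left of each class and control libraries in blue on the right. In the beta ring control 2 and control 3 stand at 0.132 and 0.114 and control 1 at -0.096, close to knockdown 1 and knockdown 2.

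The control libraries that set these extremes also differed in markers of other regions and cells. The 8 striatal markers, all listed, summed to 575.0 to 797 FPKM in the knockdown libraries and to 358 (control 3) to 1357 FPKM (control 2) in the control libraries. The 8 excitatory neuron markers, all listed, summed to 308 to 379 FPKM in the knockdown libraries and to 323 to 547 FPKM in the control libraries, highest in control 3. Of 6 erythrocyte markers 5 were listed, summing to 320.0 to 598 FPKM in the knockdown libraries and to 394 to 1665 FPKM in the control libraries, highest in control 2. Of 6 choroid plexus markers 2 were listed, summing to 1.11 to 2.97 FPKM in the knockdown libraries and to 2.24 to 15.2 FPKM in the control libraries, again highest in control 2. In the marker lists that follow, the sums overlapped between the groups. The 10 myelin markers, all listed, summed to 1427 to 1926 FPKM in the knockdown libraries and to 1201 to 1534 FPKM in the control libraries, and 10 of 10 had a positive log2 fold change, with a median of 0.319. The 6 astrocyte markers summed to 147 to 180.5 FPKM in the knockdown libraries and to 134 to 147 FPKM in the control libraries. All were listed, 4 were positive and 2 negative, and the median was 0.228. Gja1 and Slc1a2 were higher in each knockdown library than in each control library, as were 4.45% of all genes. Gfap and Aqp4 overlapped between the groups, and Aldh1l1 and Slc1a3 had log2 fold changes of -0.10 and -0.01. The 6 microglia markers summed to 99.2 to 112 FPKM in the knockdown libraries and to 97.3 to 116 FPKM in the control libraries. Of these, 3 were positive and 3 negative, with a median of -0.006. Cx3cr1, a positive one, had 8.82, 8.23 and 3.94 FPKM in the knockdown libraries and 2.90, 2.86 and 2.02 FPKM in the control libraries. The 6 interneuron markers summed to 506.5 to 641 FPKM in the knockdown libraries and to 619 to 712 FPKM in the control libraries. Of these, 2 were positive and 4 negative, with a median log2 fold change of -0.02. Among them Sst had 379.6, 388 and 473 FPKM in the knockdown libraries and 482, 554 and 496 FPKM in the control libraries. The others were Pvalb at 0.32, Gad2 at 0.01, Gad1 at -0.01, Slc32a1 at -0.03 and Vip at -0.23. Gja1, Slc1a2, Cx3cr1 and Sst were chosen after their values were seen, and none passed the adjustment over all genes (limma, adjusted p = 0.948 for each). No listed marker of these lists was at 0 in every library. The score of 80 cytosolic ribosomal protein genes was -0.129, -0.186 and 0.03 in the knockdown libraries and -0.094, 0.364 and 0.033 in the control libraries. The part of these differences in the proteasome values was not tested.

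The ATPase ring was negative in 6 of 6 genes, with a median of -0.048. Without control 3 it was negative in 2 of 6, with a median of 0.003, and without control 1 the median was -0.075. With a common sum 2 of 6 were negative, at a median of 0.011, below the 0.071 of all genes under that scaling. Psmc5, an ATPase, had 139, 151 and 150 FPKM in the knockdown libraries and 142, 151 and 168 FPKM in the control libraries. Control 3 was the highest library, and all others lay between 139 and 151 FPKM. Psmd4, the ubiquitin receptor of the base, had 32.7, 35.4 and 34.6 FPKM in the knockdown libraries and 33.1, 37.2 and 40.5 FPKM in the control libraries. Its groups overlapped through control 1, and the log2 fold change was -0.10 ± 0.10 (SE). The scaffold subunits Psmd1 and Psmd2, chosen after their values were seen, had log2 fold changes of -0.04 and 0.06. The 1 listed transcript of Psmd2 gave -0.38 instead, with 23.9, 49.9 and 41.5 FPKM in the knockdown libraries and 44.98, 46.5 and 53.5 FPKM in the control libraries.

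In the lid, 5 of 8 genes were negative, with a median of -0.028. The median was 0.013 without control 3, with 4 of 8 negative, and -0.01 without knockdown 3. With a common sum 3 of 8 were negative, at a median of 0.03, again below that of all genes. Psmd3, a lid subunit, had 25.8, 26.7 and 28.4 FPKM in the knockdown libraries and 28.1, 28.6 and 29.9 FPKM in the control libraries. Knockdown 3 alone crossed into the control range, and the log2 fold change was -0.10 ± 0.08 (SE; limma, adjusted p = 0.948). Psmd14, the deubiquitinase of the lid, was among the steadiest members, with 30.9, 31.4 and 30.7 FPKM in the knockdown libraries and 30.1, 30.1 and 32.6 FPKM in the control libraries. Psmd7, its partner, had 48.2, 48.3 and 48.2 FPKM in the knockdown libraries and 45.2, 52.7 and 53.5 FPKM in the control libraries. Both of these were chosen after their values were seen, and in both the spread lay in the control group.

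After Psmc3ip, the member with the lowest unadjusted p was an assembly chaperone. Psmg1, a chaperone that pairs with Psmg2 to start the alpha ring, had 7.41, 8.67 and 9.65 FPKM in the knockdown libraries and 10.9, 9.62 and 9.98 FPKM in the control libraries. Knockdown 3 exceeded control 2 by a small margin, and the log2 fold change was -0.23 ± 0.11 (SE; limma, unadjusted p = 0.0831, adjusted p = 0.948). Its 1 listed transcript gave a log2 fold change of 0.18, so the direction depended on which deposited value was used. Psmg2 had 15.4, 15.5 and 18.7 FPKM in the knockdown libraries and 17.8, 17.9 and 18.6 FPKM in the control libraries. Knockdown 1 and knockdown 2 were low, but knockdown 3 was the highest library. Psmd10 (gankyrin), a chaperone of the base, had 9.29, 11.5 and 9.92 FPKM in the knockdown libraries and 11.2, 11.4 and 11.3 FPKM in the control libraries. Here knockdown 2 lay above all control libraries. The core chaperones were negative in 3 of 4 genes, with a median of -0.107, which was -0.031 without knockdown 1 and -0.198 without knockdown 3, and -0.16 without control 1 and -0.035 without control 2.

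Psme1 and Psme2 encode the interferon-inducible activator that caps the core in place of the regulatory particle. Psme1 had 10.4, 8.65 and 8.47 FPKM in the knockdown libraries and 8.91, 10.1 and 10.9 FPKM in the control libraries. Psme2 had 11.6, 11.9 and 13.9 FPKM in the knockdown libraries and 11.8, 17.4 and 12.7 FPKM in the control libraries. Neither separated the groups, and without control 2 the log2 fold change of Psme2 was 0.02 in place of -0.14. Psme2b had 0.709, 0.303 and 0.740 FPKM in the knockdown libraries and 0.624, 0.670 and 0.759 FPKM in the control libraries. As a near copy of Psme2 it may share reads with it, so its level is uncertain. Psmf1, the inhibitor that binds the core, had 3.14 to 4.53 FPKM in the knockdown libraries and 3.05 to 4.59 FPKM in the control libraries.

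Psmc3ip had the largest fold change among the members. It had 1.89, 1.57 and 1.41 FPKM in the knockdown libraries and 2.38, 3.24 and 1.67 FPKM in the control libraries. Knockdown 1 exceeded control 3, and the log2 fold change was -0.36 ± 0.18 (SE; limma, unadjusted p = 0.0817, adjusted p = 0.948). Without it the regulatory median was -0.047 over 29 genes.

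**Figure D4:**
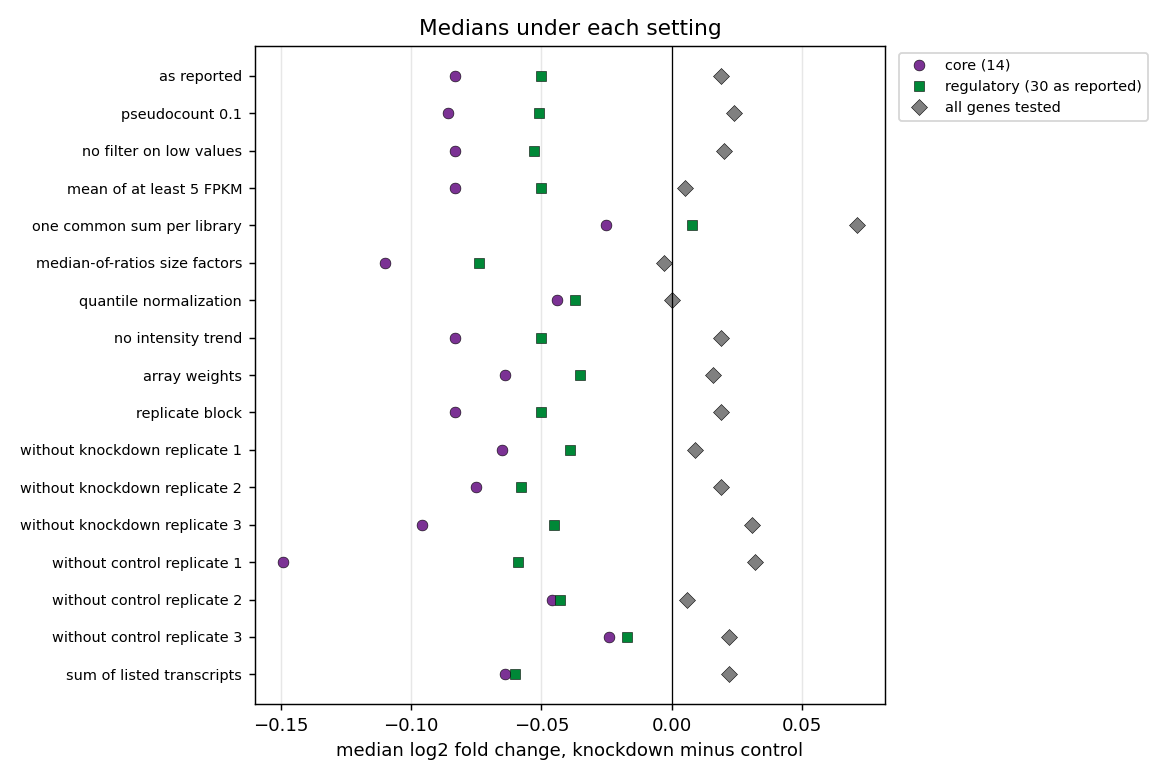
Median log2 fold change, knockdown minus control, of the core genes, the regulatory genes and all genes tested under each setting. The core median runs from -0.149 without control 1 to -0.024 without control 3, and the regulatory median is 0.008 with a common sum, where that of all genes is 0.071.

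At the transcript level the members had 78 of the 24676 listed transcripts, 24 members with 1 and 21 with several, and 68 were tested. One was called by limma (adjusted p under 0.05), against 19 of 18476 transcripts (0.103%). At an unadjusted p under 0.05, 4 of 68 passed, against 3.81% overall. The groups were fully separated in 4 transcripts higher in knockdown, against 4.57% of all transcripts, and in 1 lower in knockdown, against 4.22%.

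The called transcript was Psma4-207, from the gene of an alpha subunit. It had 3.52, 3.65 and 3.46 FPKM in the knockdown libraries and was listed at 0 in all 3 control libraries (limma, adjusted p = 0.0354). In the knockdown libraries it made up 4.62%, 4.45% and 4.20% of the listed transcripts of Psma4. The main transcript, Psma4-201, had 72.0, 77.9 and 78.3 FPKM in the knockdown libraries and 75.1, 88.4 and 86.1 FPKM in the control libraries, with overlapping groups. The gene value, 37.5, 40.4 and 40.1 FPKM in the knockdown libraries and 38.0, 43.9 and 43.0 FPKM in the control libraries, overlapped as well. Its mean over the 6 libraries, 1.77 FPKM, passed the minimum of 1 FPKM only through the knockdown libraries, so the filter let it in through its high group and the call is given as a description. The call was lost when any 1 of the 6 libraries was left out, with adjusted p between 0.0581 and 0.133, and with a pseudocount of 0.1 (adjusted p = 0.105).

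In GENCODE M21 (GRCm38) Psma4-207 lies on the plus strand at chr9:54950815-54956933 and has 9 exons and 828 bases. It starts slightly downstream of Psma4-201 (chr9:54950790-54958030, 1165 bases) and differs from it in 3 further places. It carries an extra non-coding exon of 85 bases at chr9:54951344-54951428, between the first exon and the first coding exon of Psma4-201. It stops 1 base short of the end of the eighth exon of Psma4-201, and the annotation marks its 3′ end as not found. It lacks the ninth exon of Psma4-201, of 396 bases at chr9:54957635-54958030, which holds the end of the coding sequence, so that 630 coding bases are annotated for Psma4-207 and 783 for Psma4-201. The extra exon shares its end with the first exon of Psma4-206 (chr9:54951104-54951428), which had 0.612, 0.496 and 0.526 FPKM in the knockdown libraries and 0.676, 0.055 and 0.386 FPKM in the control libraries.

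Psmd8, which encodes a lid subunit, had the next lowest p. Psmd8-203 had 15.9, 7.26 and 7.66 FPKM in the knockdown libraries and 1.16, 3.17 and 3.97 FPKM in the control libraries. The groups did not overlap, and the log2 fold change was 1.58 ± 0.43 (SE; limma, unadjusted p = 0.0106, adjusted p = 0.950). The other transcripts of Psmd8 varied within the control group. Psmd8-201 had 5.42, 8.87 and 9.15 FPKM in the knockdown libraries and 0.435, 0.151 and 38.5 FPKM in the control libraries. Psmd8-202 had 2.53, 9.01 and 9.45 FPKM in the knockdown libraries and 17.7, 23.5 and 1.61 FPKM in the control libraries. Psmd8-207 had 12.8, 13.4 and 15.2 FPKM in the knockdown libraries and 15.9, 16.4 and 2.20 FPKM in the control libraries. In control 3 Psmd8-201 was thus high while Psmd8-202 and Psmd8-207 were low, and in control 1 and control 2 it was the other way round. In the annotation Psmd8-201 and Psmd8-203 hold the same coding length of 1059 bases and share both ends of each exon except the first exon of the gene, where they begin at 29180701 and 29180673 on the minus strand of chromosome 7.

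**Figure D5:**
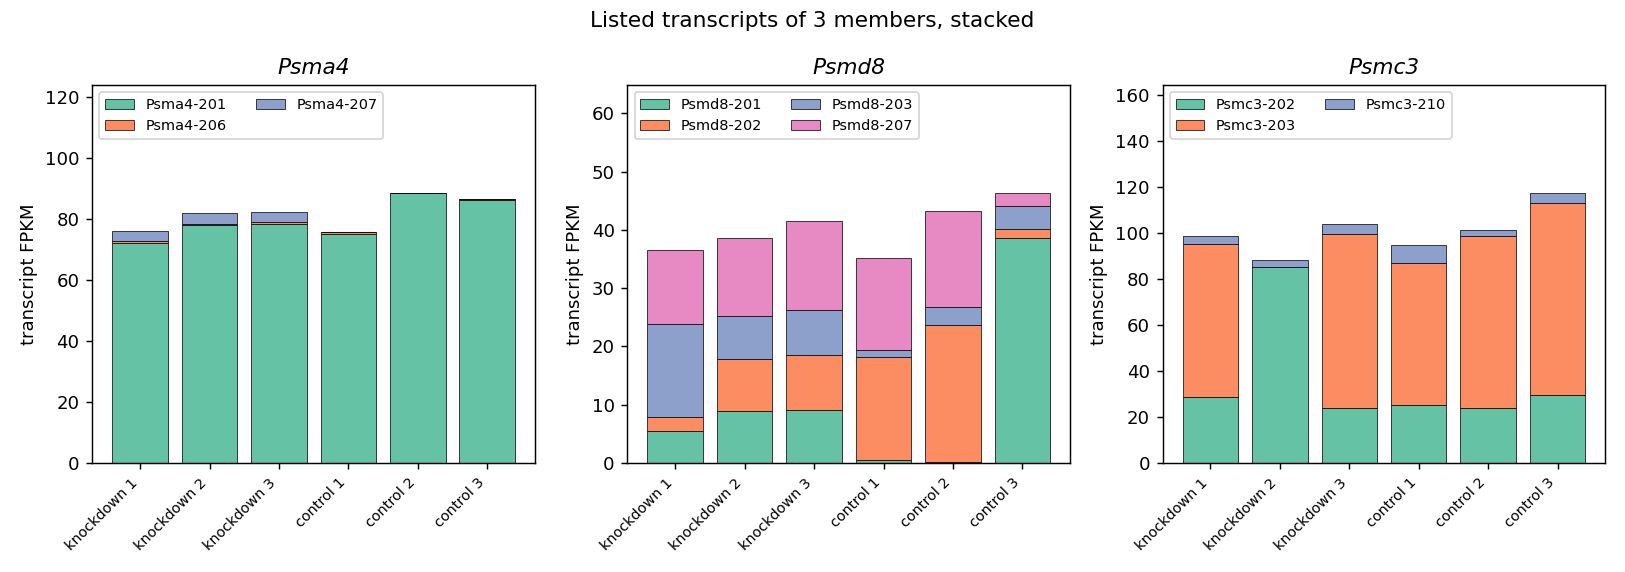
FPKM of the listed transcripts of Psma4, Psmd8 and Psmc3, stacked, in the 3 knockdown libraries (left) and the 3 control libraries (right) of each panel. Psma4-207 is a thin layer of 3.46 to 3.65 FPKM in the knockdown libraries; within-group switches are seen in control 3 for Psmd8 and in knockdown 2 for Psmc3.

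Other transcripts of low p moved by less. Psmd13-201, the main transcript of a lid subunit gene, had 18.5, 18.1 and 18.1 FPKM in the knockdown libraries and 16.2, 15.6 and 15.2 FPKM in the control libraries. The groups were apart, with a log2 fold change of 0.21 ± 0.08 (SE; adjusted p = 0.950). The gene value of Psmd13 did not differ in this way, at 17.4, 15.9 and 15.7 FPKM in the knockdown libraries and 14.9, 16.7 and 16.7 FPKM in the control libraries. Psmd13-204, a 3′ fragment without an annotated start, had 8.79, 8.75 and 9.48 FPKM in the knockdown libraries and 8.29, 16.2 and 15.8 FPKM in the control libraries. The remaining listed transcripts of the gene, Psmd13-209 and Psmd13-210, stayed at or below 2.01 FPKM in each library.

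Psmd11-201, from another lid gene, had 17.6, 18.5 and 20.8 FPKM in the knockdown libraries and 16.4, 15.98 and 16.2 FPKM in the control libraries, with groups apart. Its companion Psmd11-214 had 0.287 to 2.36 FPKM in the knockdown libraries and 1.05 to 1.63 FPKM in the control libraries. Psmg3-202, from a core chaperone gene, had 0.692, 0.830 and 0.864 FPKM in the knockdown libraries and 1.16, 1.68 and 2.26 FPKM in the control libraries. It was the only tested member transcript lower in each knockdown library than in each control library, with a log2 fold change of -0.57 ± 0.23 (SE; adjusted p = 0.950). Psmg3-201, the main transcript of the gene, had 11.2 to 13.2 FPKM in the knockdown libraries and 10 to 13.2 FPKM in the control libraries. Psmd10-202 had 2.10, 4.19 and 1.86 FPKM in the knockdown libraries and 4.28, 4.45 and 3.90 FPKM in the control libraries, overlapping through knockdown 2. Psmd10-201 had 7.49 to 8.37 FPKM in the knockdown libraries and 7.30 to 7.78 FPKM in the control libraries.

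Psmc3 was looked at after its values were seen. Psmc3-203 had 66.5, 0 and 75.6 FPKM in the knockdown libraries and 61.7, 74.9 and 83.4 FPKM in the control libraries. Psmc3-202 had 28.6, 85.3 and 23.9 FPKM in the knockdown libraries and 25.2, 23.8 and 29.6 FPKM in the control libraries. The gene value of knockdown 2, 55.5 FPKM, lay with the 53.3 to 67.1 FPKM of the other libraries. Psmc3-203 lacks an exon of 126 bases that Psmc3-202 holds at chr2:91054979-91055104 and starts further downstream. Of the 68 tested transcripts, 6 were listed at 0 in at least 1 library.

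In 6 lists of genes around the complex, limma called 0 genes after adjustment over all genes, as it did among all 11961 genes. At an unadjusted p under 0.05 there were 0, against 3.57% of all genes. The lists are small and can hold 0 such genes at that share. Tested were 2 immunoproteasome genes, 20 partners, 2 assembly factors outside the Psm naming, 6 transcription regulators, 6 ubiquitin and E1 genes and 13 interferon response genes. Of the immunoproteasome genes, Psmb10 had 16.8, 16.7 and 17.3 FPKM in the knockdown libraries and 13.4, 14.1 and 19.4 FPKM in the control libraries. Psmb8 had 2.48, 1.78 and 2.08 FPKM in the knockdown libraries and 1.52, 2.18 and 2.00 FPKM in the control libraries. Both replace a constitutive catalytic subunit, and in both the groups overlapped. Of the 13 tested interferon response genes 12 were positive, with a median log2 fold change of 0.296. H2-K1, an antigen-presenting molecule, had 14.3, 9.17 and 13.7 FPKM in the knockdown libraries and 6.999, 8.39 and 11.3 FPKM in the control libraries. Stat2, a transcription factor of that response, had 5.41, 3.82 and 4.27 FPKM in the knockdown libraries and 4.02, 2.95 and 3.95 FPKM in the control libraries. Both overlapped between the groups.

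Among 20 partners of the proteasome (receptors, shuttle factors, deubiquitinases and ligases), 14 were positive and 6 negative, with a median of 0.039. Sem1, a small lid subunit outside the Psm naming, had 16.3, 16.5 and 17.6 FPKM in the knockdown libraries and 17.5, 23.2 and 19.4 FPKM in the control libraries. Only knockdown 3 and control 1 overlapped. Ubqln1, a shuttle factor, had 33.6, 34.3 and 30.05 FPKM in the knockdown libraries and 32.5, 27.5 and 29.4 FPKM in the control libraries.

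Akirin2, which guides proteasomes into the nucleus in human cells, had 40.1, 41.8 and 39.2 FPKM in the knockdown libraries and 44.0, 44.3 and 45.6 FPKM in the control libraries. Its groups were apart, with a log2 fold change of -0.14 and a two-sided exact permutation p of 0.1, the smallest that 3 against 3 allows. Among all genes, 3.47% were separated in that direction, and Akirin2 was the only separated gene in the lists around the complex. It did not pass the adjustment over all genes (adjusted p = 0.948). Pomp, the maturation factor of the core, had 19.2, 21.4 and 23.0 FPKM in the knockdown libraries and 20.05, 23.5 and 24.6 FPKM in the control libraries.

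Of the 6 tested genes that control proteasome transcription, 3 were positive and 3 negative. Nfe2l1, the factor that raises proteasome genes when proteolysis is short, had 7.92, 6.55 and 5.20 FPKM in the knockdown libraries and 8.01, 8.48 and 5.73 FPKM in the control libraries. Ddi2, the protease that activates Nfe2l1, had 5.73, 5.05 and 4.32 FPKM in the knockdown libraries and 4.71, 3.04 and 4.02 FPKM in the control libraries. Mafg, a partner of such factors on DNA, had 21.6, 23.2 and 21.7 FPKM in the knockdown libraries and 22.5, 19.0 and 21.2 FPKM in the control libraries. None of the 3 separated the groups. Of the 6 ubiquitin and E1 genes, 5 were negative, with a median of -0.058. Ubb, a polyubiquitin gene, had 562, 557 and 587 FPKM in the knockdown libraries and 542, 649 and 633 FPKM in the control libraries. Rps27a, a fusion of ubiquitin with a ribosomal protein, had 122, 99.3 and 116 FPKM in the knockdown libraries and 102, 148 and 109 FPKM in the control libraries. Control 2 was the highest library for both, as it was for 5 of the 14 core genes.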

How the data were processed

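Gene and transcript FPKM are given as the authors deposited them, a unit stated per the file headers. The submitters' processing notes name FastQC, cutadapt, HISAT2 and StringTie; versions, genome build and annotation release are not given in the sources used here. The 6 columns of each table were matched to libraries by name. An empty line in each table is not analysed here. The test was limma 3.58.1 (R 4.3.3) on log2(FPKM + 1) with an intensity trend and Benjamini-Hochberg adjustment at 0.05, over features averaging 1 FPKM or more. Fold changes on this scale understate those of low features. The functions were tested on simulated data. Members, gene lists and tests were chosen with earlier results of these data known. The naming rule gave values in each library for catalytic genes, the highest and lowest members, Psme1 and Psme2, and the members, transcripts and pathway genes of smallest unadjusted p; some pathway genes it names are not reported here. Spans were equal in GENCODE M21 for 43 of 45 members. Alternatives varied the pseudocount, filter, scaling, variance trend, library weights and replicate block, and left out each library; transcript sums and leaving out Psmc3ip were added after seeing the data. Promoters are from RefSeq (GRCm38.p6).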

Additional observations from a re-analysis of the deposited data

How the results depend on the processing

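The count of 0 proteasome genes called held under each alternative run, at 0, and the core median kept its sign. Over all genes, 0 were called as reported, 1 with every library scaled to a common sum, 3 with array weights, 4 with transcript sums (chosen after seeing the data) and 0 to 3 with 1 library left out. The 1 called proteasome transcript became 0 with a pseudocount of 0.1, 0 with a mean of at least 5 FPKM, which removes Psma4-207, and 0 to 0 with 1 library left out. With the replicate block it was 0 (adjusted p = 0.632). Same-numbered libraries correlated at 0.184, -0.127 and -0.0708, so the numbers were not taken to pair them, and the block changed no other call among the members. The regulatory median, -0.05, was 0.01 with a common sum, which moved the median of all genes to 0.071. Directions reversed for Psma2 (0.06 with a common sum, 0.01 with quantile normalization, 0.03 with array weights, -0.07 to 0.08 with 1 library left out) and Psmc5 (0.01 with quantile normalization, -0.12 to 0.001 with 1 left out). With 1 library left out they also reversed for Psmb5 (-0.21 to 0.06), Psme2 (-0.24 to 0.02) and Rps27a (-0.18 to 0.08). With transcript sums they reversed for Psma6 (-0.10), Psma3 (0.001) and Psmg1 (0.18). The causes were not tested. Depth is unknown, so the limit on precision is the spread of 3 libraries per group.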
